A study of Homo sapiens with 4 samples.

Results

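BTF3L4, BTF3 and NACA encode the subunits of the nascent polypeptide-associated complex (NAC), and their 3′ ends were followed here by PAS-seq, a method that reads mRNA next to its poly(A) tail and so locates the cleavage point. A poly(A) cluster (PAC) is a group of neighbouring cleavage sites. PACs were taken when their dominant site, the position with more tags than any other in the PAC, lay on the same strand within the GENCODE 44 span of 1 of the 3 genes. This gave 7 PACs of 17627 in all, with 3 in BTF3L4, 1 in BTF3 and 3 in NACA. BTF3L4 was selected on the changes of its dominant sites between the control and L-lactate libraries used here, so its values in that comparison are a description and carry no test.

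The libraries come from KYSE30 and TE-1, established human lines of esophageal squamous cell carcinoma (ESCC). In each line, cells given 20 mM L-lactate for 24 h made 1 library and control cells given PBS made another. The cell line field of the control samples names KYSE32 and TE-3, and this report follows their titles and the study's methods, which name KYSE30 and TE-1. By PAC levels, the libraries of each line resembled each other (Spearman's rho 0.980) more than those of different lines did (0.805 to 0.814). Depth was 7174991 to 10393799 tags, and the lowest level listed for a PAC was 8 to 11 tags. Levels are RPM, the tags of a PAC scaled to the tags of the library, and since a transcript gives 1 end they were not divided by length. Intervals are 95% intervals and cover counting error only. Each condition in a line is 1 library, so no replicate spread exists within a line.

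NAC is a heterodimer of an alpha and a beta subunit that binds ribosomes near the tunnel exit, shields nascent chains, and keeps the signal recognition particle from engaging ribosomes that make cytosolic proteins. NACA encodes the alpha subunit, BTF3 the beta subunit, and BTF3L4 a close paralogue of BTF3. Where a gene has several poly(A) sites in its 3′ UTR, the choice of a distal site (alternative polyadenylation, APA) lengthens the 3′ UTR without changing the protein. A poly(A) signal, most often AATAAA in DNA letters, is bound by the cleavage and polyadenylation specificity factor upstream of the cleavage site, and TGTA is the motif of cleavage factor I.

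BTF3L4 (ENSG00000134717.18) spans chr1:52056199-52090716 on the plus strand of GRCh38. Its 3 PACs all lay in the 3′ UTR of the reference coding transcript, whose stop codon ends at 52086758. The proximal PAC covered chr1:52086882-52087162, the middle PAC chr1:52088392-52088428 and the distal PAC chr1:52089772-52089892. Each had a different dominant site in at least 1 of the libraries that listed it. The 30 bases that end at each of these 6 sites are shown, since the description of the gene turns on which of them led. Capitals mark the poly(A) signal, where the 50 bases upstream of the site held any of 12 hexamers and it fell within the 30 bases.
Proximal PAC, first site, chr1:52086853-52086882: agttcagtaaTATAAAtattttgtatatta
Proximal PAC, second site, chr1:52087105-52087134: agttctatttatcctcctccctccccagta
Middle PAC, first site, chr1:52088363-52088392: aacaaAATAAAataacagtgcaaaagagga
Middle PAC, second site, chr1:52088390-52088419: ggagaatatttcctcttgtgcttttcttga
Distal PAC, first site, chr1:52089743-52089772: acaagtccaaAGTAAAtggttgggctctta
Distal PAC, second site, chr1:52089863-52089892: gattccATTAAAttcactttaataagccta

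The hexamers searched on the strand of the gene were AATAAA first, ATTAAA next, and otherwise TATAAA or AGTAAA or CATAAA or GATAAA or AATATA or AATACA or AATAGA or AATGAA or ACTAAA or AAGAAA, with overlaps allowed and the match nearest the site taken. AATAAA was found upstream of 1 of the 6 sites, the first site of the middle PAC, where it ended 19 nt upstream. Over 17621 PACs of the series, at the dominant site, AATAAA was found in 66.4%, ATTAAA without it in 16.7%, 1 of the other 10 hexamers alone in 12.1% and none in 4.73%. The first site of the proximal PAC had TATAAA 14 nt upstream, and the distal sites had AGTAAA 14 nt and ATTAAA 18 nt upstream. The second sites of the proximal and middle PACs had none of the 12. At the second site of the proximal PAC, 12 of the next 20 bases of the genome were A, which holds for 0.948% of PACs. Its upper quantile position lay at 52087153 in all 4 libraries, and AATAAA ended 11 nt upstream of that position. TGTA was found in the 100 bases upstream of 56.9% of PACs. It occurred 4 times upstream of the second site of the proximal PAC, ending 89, 85, 75 and 55 nt away, and 1 time upstream of the first site, ending 5 nt away. It also occurred 1 time upstream of the first distal site, 50 nt away, and was not found upstream of the second distal site or of either middle site. A priming oligo can bind a run of A within a transcript, and its part in the tags at the second proximal site was not tested.

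The proximal PAC held most BTF3L4 tags in every library. Its level was 86.9 RPM in the KYSE30 control and 84.5 RPM with L-lactate, and 58.3 RPM in the TE-1 control and 59.5 RPM with L-lactate. Both KYSE30 libraries lay above both TE-1 libraries. The middle PAC was at 12.4 RPM in the KYSE30 control and 9.48 RPM with L-lactate, and at 14.1 RPM in the TE-1 control and 12.3 RPM with L-lactate. With L-lactate it stood at 0.765 of the KYSE30 control (0.551 to 1.06) and at 0.868 of the TE-1 control (0.669 to 1.12), and both intervals include 1. The distal PAC was at 9.29 RPM in the KYSE30 control, 9.90 RPM in KYSE30 with L-lactate and 7.20 RPM in TE-1 with L-lactate, and the TE-1 control did not list it. Those 3 listed levels rest on 69, 71 and 61 tags.

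As shares of the gene, the proximal PAC held 80.02% of tags in the KYSE30 control and 81.3% with L-lactate, a difference of 1.32 percentage points (-2.63 to 5.23). In TE-1 cells it held 80.5% in the control and 75.3% with L-lactate, a difference of -5.14 points (-9.47 to -0.829). The middle PAC held 11.4% and 9.13% in KYSE30 cells, control first, and 19.5% and 15.5% in TE-1 cells. The 2 TE-1 shares of the middle PAC were above the 2 KYSE30 shares, by 8.11 points between controls (4.53 to 11.7) and 6.42 points between L-lactate libraries (3.00 to 9.90). The distal PAC held 8.56%, 9.53% and 9.12% in the 3 libraries that listed it.

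**Figure D1:**
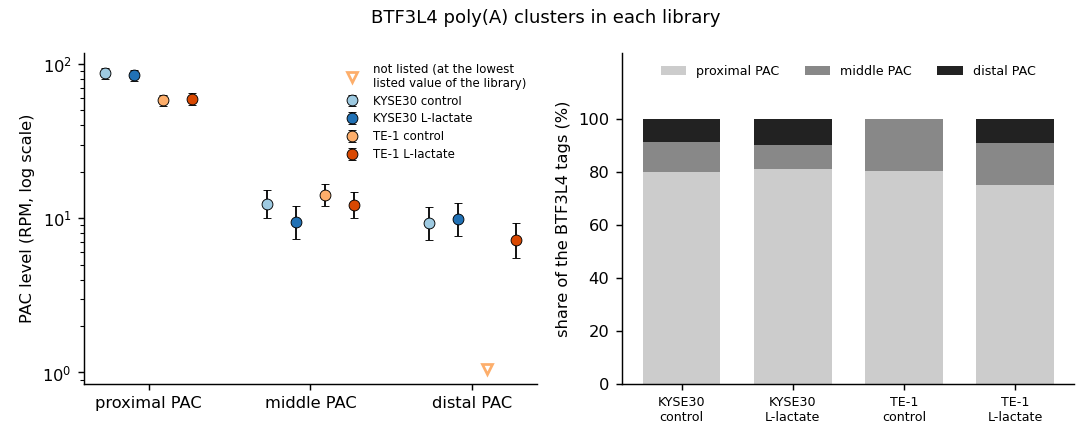
Left, level of each BTF3L4 PAC in RPM on a log scale, with 1 point per library and 95% Poisson intervals of the tags, and an open triangle at the lowest listed level where a library did not list the PAC. Right, share of the BTF3L4 tags in each PAC (%) by library: the proximal PAC holds 75.3% to 81.3% in all 4 libraries, and the distal PAC is missing from the TE-1 control alone.

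The absence of the distal PAC from the TE-1 control gave the widest difference in share of the BTF3L4 tags between libraries of 1 line. Of 9111 PACs above 5 RPM in the other 3 libraries, the TE-1 control lacked 2 (0.022%), and the distal PAC of BTF3L4 is 1 of them. As the gene was chosen on changes between these libraries, its place among the 2 is a description and no measure of rarity. The same count was 10 of 9151 for the KYSE30 control, 4 of 9074 for the KYSE30 L-lactate library and 9 of 9074 for the TE-1 L-lactate library. The TE-1 control was the deepest library, with 10393799 tags, and the lowest level it listed was 1.06 RPM, or 11 tags. Per its methods the study excluded sites under 1 RPM and removed PACs made of a single site under 3 RPM, so the PAC may have held tags there without being listed. The distal share rose from none listed to 9.12% of the BTF3L4 tags in TE-1 cells. In KYSE30 cells it differed by 0.97 points (-1.89 to 3.87). Among genes whose 3′ UTR held several PACs, the distal share changed by at least 10 points in 9.54% of 1656 genes for KYSE30 and 11.6% of 1664 genes for TE-1. BTF3L4 did not reach 10 points in either line, and a larger change was seen in 1286 genes for KYSE30 and 236 genes for TE-1.

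The dominant site of every BTF3L4 PAC differed between a control and an L-lactate library of 1 line, and these differences are the values for which the gene was chosen. In TE-1 cells the dominant site of the proximal PAC lay 124 nt past the stop codon in the control and 376 nt past it with L-lactate, 252 nt further downstream. In KYSE30 cells the site at 376 nt led in both libraries. The dominant site of the distal PAC lay 3014 nt past the stop codon in the KYSE30 control and 3134 nt past it in both L-lactate libraries, 120 nt further downstream in KYSE30 cells. The middle PAC went the other way in TE-1 cells, from 1661 nt in the control to 1634 nt with L-lactate, a distance of 27 nt, whereas 1634 nt led in both KYSE30 libraries. Over all PACs above 5 RPM in both libraries of a line, the dominant site moved by more than 24 nt in 1.43% of 10849 PACs for KYSE30 and 1.24% of 10769 PACs for TE-1. Among PACs wider than 100 nt, as the proximal and distal PACs are, those shares were 6.33% and 5.18%.

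Each move was a change of the leading site among several in use. At the proximal PAC the leading site held 27.9% of the tags of the PAC in the KYSE30 control (24.6% to 31.5%) and 31.8% with L-lactate (28.3% to 35.7%). In TE-1 cells the site at 124 nt held 27.7% in the control (24.3% to 31.4%), and the site at 376 nt held 21.8% with L-lactate (18.4% to 25.6%). The files give tags only for the dominant site, so a site that does not lead can be bounded by the share of the one that does. The site at 124 nt therefore held at least 5.90 points less in TE-1 cells with L-lactate than in the control, and that bound had an interval of -10.9 to -0.779 points for L-lactate minus control. No rise of the site at 376 nt can be stated. Between the L-lactate libraries, the share of the site at 376 nt in TE-1 minus that in KYSE30 was -10.02 points (-15.1 to -4.79). The lower quantile position of the proximal PAC, at 10% of its tags, was its first base in all 4 libraries. That base is the site at 124 nt, which therefore held at least 10% of the tags in KYSE30 cells too.

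At the distal PAC the first site held 65.2% of tags in the KYSE30 control, or 45 of 69. With L-lactate the second site held 56.3% in KYSE30 cells, or 40 of 71, and 55.7% in TE-1, or 34 of 61. In KYSE30 cells the second site held at least 21.6 points more with L-lactate (interval of the bound 5.05 to 36.5) and the first site as much less. At the middle PAC the site at 1634 nt held 54.3% of tags in the KYSE30 control, 50% in KYSE30 with L-lactate and 49.04% in TE-1 with L-lactate, and the site at 1661 nt held 43.5% in the TE-1 control. In TE-1 cells the tags put the site at 1634 nt at least 5.50 points higher with L-lactate (interval of the bound -6.89 to 17.7). That interval includes 0, so counting error leaves the direction open. The difference itself may be larger than the bound, and its size is not known. BTF3L4 was chosen on these sites, so none of the intervals of the bounds at its PACs is a test. The lower and upper quantile positions, at 10% and 90% of the tags, were the same in the control and L-lactate libraries of each line for all 3 PACs wherever both listed them. Measured at those positions, no PAC of BTF3L4 moved, but they need not move when another site within the PAC takes the lead. In the distal PAC they are the first and the second site themselves, and stay in place while each holds over 10% of the tags.

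**Figure D2:**
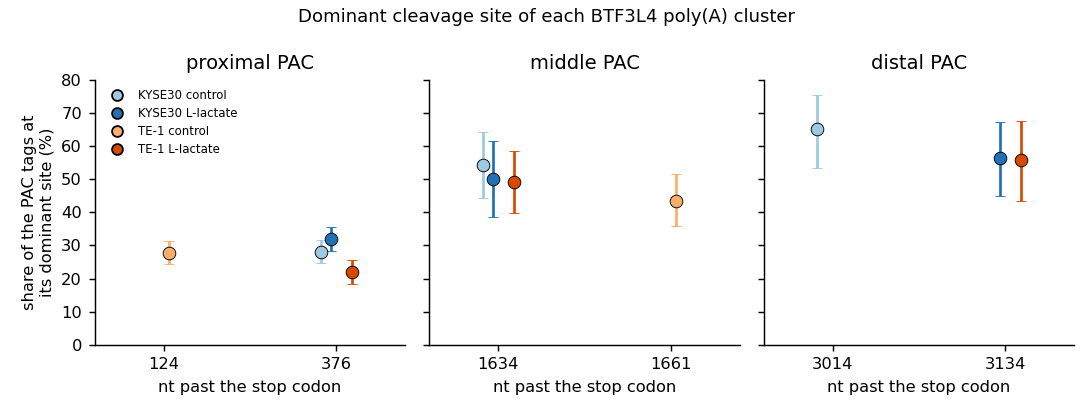
Dominant site of each BTF3L4 PAC, as its distance past the stop codon (nt), against the share of the PAC's tags at that site (%), with 1 point per library, 95% Wilson intervals, and points of 1 site set side by side around its tick. The TE-1 control stands apart in the proximal PAC (124 nt) and the middle PAC (1661 nt), and the KYSE30 control in the distal PAC (3014 nt).

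BTF3 (ENSG00000145741.17), the beta subunit gene at chr5:73498408-73505667 on the plus strand, had 1 PAC, chr5:73505492-73505622. Its dominant site lay 257 nt past the stop codon in all 4 libraries and held 94.9% to 95.9% of the tags. AATAAA ended 15 nt upstream of it, as shown for contrast with the BTF3L4 sites.
BTF3, chr5:73505466-73505495: acaaagattAATAAAgttctttgcctagta

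BTF3 was at 1131 RPM in the KYSE30 control and 1124 RPM with L-lactate, and at 1432 RPM in the TE-1 control and 1289 RPM with L-lactate. The KYSE30 libraries differed by less than counting error, at a ratio of 0.994 (0.964 to 1.02). In TE-1 cells the ratio was 0.901 (0.878 to 0.923), and both TE-1 libraries stayed above both KYSE30 libraries.

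NACA (ENSG00000196531.14), the alpha subunit gene at chr12:56712305-56731628 on the minus strand, had a terminal PAC at chr12:56711940-56712440. Its dominant site lay 106 nt past the stop codon in all 4 libraries, held 41.2% to 42.6% of the tags, and had AATAAA 22 nt upstream. The terminal PAC was at 1860 RPM in the KYSE30 control and 1825 RPM with L-lactate, and at 2469 RPM in the TE-1 control and 2340 RPM with L-lactate. It held 97.2% and 97.6% of the NACA tags in KYSE30 cells and 98.7% in each TE-1 library.
NACA terminal PAC, chr12:56712432-56712461: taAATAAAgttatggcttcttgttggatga
PAC at the PRIM1 end, chr12:56731624-56731653: aagagccatttAATAAAtatggcagaacta

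The other PACs in the NACA span also lay in neighbouring genes, and their tags cannot be assigned to NACA. The PAC at chr12:56731587-56731624 lay in the first exon of a long NACA transcript and also in the last exon of PRIM1. PRIM1 is a DNA primase subunit gene on the same strand. The sequence of this PAC is shown because AATAAA ends 13 nt upstream of it. That AATAAA, at chr12:56731637-56731642, lies outside the NACA span, which begins at 56731628 on this strand. An RNA that starts within the span does not hold it, so the signal belongs to RNA that starts further upstream, such as that of PRIM1. It was at 52.0 RPM in the KYSE30 control, 41.4 RPM in KYSE30 with L-lactate, 30.2 RPM in the TE-1 control and 31.5 RPM in TE-1 with L-lactate. Both KYSE30 libraries were above both TE-1 libraries, opposite to the terminal PAC. The last PAC, at chr12:56730362-56730372 in an intron of that long transcript, was at 2.42 RPM in the KYSE30 control, 3.07 RPM with L-lactate and 1.35 RPM in the TE-1 control, and TE-1 with L-lactate did not list it. It rests on 14 to 22 tags where listed and also lies within a read-through gene.

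The ratio of the subunit genes ranged from 1.62 to 1.81 over the libraries, and that of the beta subunit gene to its paralogue from 10.4 to 19.8. The NACA terminal PAC had 1.65 tags per BTF3 tag in the KYSE30 control (1.60 to 1.69), 1.62 with L-lactate (1.58 to 1.67), 1.72 in the TE-1 control (1.69 to 1.76) and 1.81 with L-lactate (1.77 to 1.86). BTF3 had 10.4 tags per BTF3L4 tag in the KYSE30 control (9.69 to 11.2) and 10.8 with L-lactate (10.04 to 11.7). In TE-1 cells this was 19.8 in the control (18.4 to 21.3) and 16.3 with L-lactate (15.1 to 17.7), and neither TE-1 interval overlaps a KYSE30 interval. By mean level over the 4 libraries NACA ranked 62, BTF3 109 and BTF3L4 1998 of 10900 genes.

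Levels between the lines were compared with limma on log2(RPM + 1) over all 4 libraries, with terms for line and treatment, so that the 2 libraries of a line served as its replicates. In bulk RNA, fewer cells with a transcript and less of it per cell cannot be told apart. BTF3L4 as a whole was at 109 and 104 RPM in KYSE30 cells, control first, and at 72.4 and 79.0 RPM in TE-1 cells. It was lower in TE-1 cells by a log2 difference of -0.48 ± 0.11 (SE, adjusted p = 0.0278). NACA, at 1915 and 1869 RPM in KYSE30 cells and 2500 and 2371 RPM in TE-1 cells, was higher in TE-1 cells by 0.36 ± 0.10 (adjusted p = 0.0452). That call was lost at a pseudocount of 0.1 RPM (adjusted p = 0.0587). BTF3 had a log2 difference of 0.27 ± 0.11 and did not pass the test (adjusted p = 0.104), although it did at a pseudocount of 5 RPM (adjusted p = 0.0490). The 2 members called are to be read against 66.2% of the 10900 genes tested, with 32.3% higher and 33.9% lower in TE-1 cells, so calls between these lines are common.

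**Figure D3:**
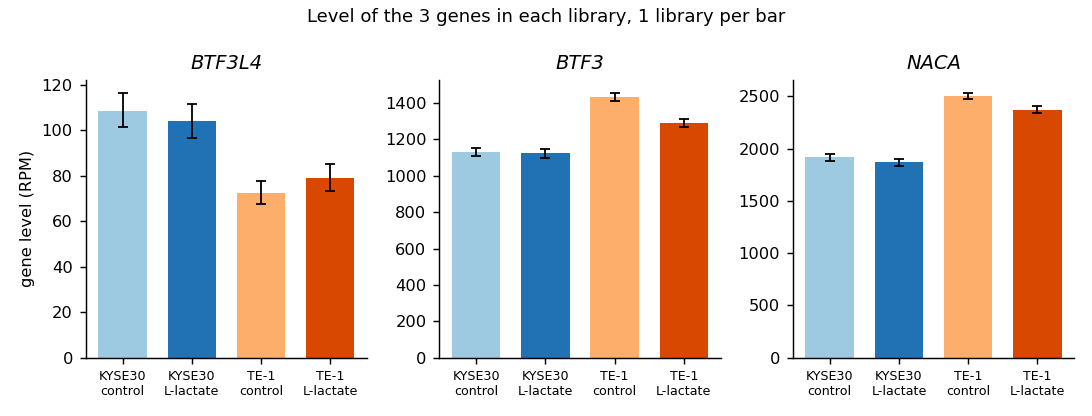
Level of BTF3L4, BTF3 and NACA (RPM, summed over the PACs in each gene) in the 4 libraries, with 1 bar per library, each axis from 0, and 95% Poisson intervals of the tags. BTF3L4 is lower in both TE-1 libraries (72.4 and 79.0 RPM) than in both KYSE30 libraries, while BTF3 and NACA are higher in both.

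The share of each PAC in its gene was compared between lines as a log2 odds with the same limma model. A PAC in overlapping genes was tested once in each, so the counts are of pairs of a PAC and a gene. None of the 9764 pairs of 4022 genes passed (0.0%), with 3182 at an unadjusted p of at most 0.05. The middle PAC of BTF3L4 had log2 odds higher by 0.88 ± 0.20 (SE) in TE-1 cells (adjusted p = 0.126), the proximal PAC a difference of -0.24 ± 0.26 (adjusted p = 0.560) and the distal PAC -1.94 ± 1.25 (adjusted p = 0.375). The test was then limited to PACs of at least 5 RPM in all 4 libraries, which leaves out the distal PAC. Under that limit 1538 of 2833 pairs passed, and the middle PAC was among them (0.81, limma, adjusted p = 2.25e-04). The proximal PAC was its mirror image, since only these PACs of BTF3L4 remain. The NACA terminal PAC had a difference of 1.02 ± 0.22 (adjusted p = 0.125) and the PAC at the PRIM1 end -0.96 ± 0.24 (adjusted p = 0.143). Both passed under the same limit (limma, adjusted p = 8.57e-06), again as mirror images, since only these PACs of NACA remain. The poly(A) signal of the PAC at the PRIM1 end lies outside the NACA span. These odds therefore compare the NACA terminal PAC with an end of a neighbour and do not show a choice between ends of NACA. The fit under that limit gave all PACs the same spread (SE 0.20), so its p-values hold no spread particular to a PAC.

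With L-lactate over both lines, no gene passed at an adjusted p of 0.05 (0.0%), with 598 of 10900 at an unadjusted p of at most 0.05. BTF3 had a log2 difference of -0.08 ± 0.11 (limma, adjusted p = 0.858) and NACA one of -0.06 ± 0.10 (adjusted p = 0.9004). No change in the PAC usage of NACA passed (limma, adjusted p = 0.877 for the terminal PAC). Nor did any pair of a PAC and a gene in the series (0.0%, with 289 at an unadjusted p of at most 0.05). BTF3L4 as a whole stood at 0.957 of the KYSE30 control (0.865 to 1.06) and at 1.09 of the TE-1 control (0.981 to 1.21). A 1.5-fold difference between the libraries of a line was seen for none of the 3 genes, against 5.66% of genes for KYSE30 and 5.39% for TE-1.

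Other factors that meet nascent chains at the ribosome were measured as a list of 27 genes, of which 25 passed the filter on low values. Between the lines 13 of these 25 were higher and 3 were lower in TE-1 cells, against 32.3% higher and 33.9% lower over all genes, with a median log2 difference of 0.48 against -0.02 over all genes tested. With L-lactate none passed, with a median of 0.06 against 0.02. Both genes of the signal recognition particle receptor, which docks ribosomes at the endoplasmic reticulum, were higher in TE-1 cells. SRPRA was at 68.5 and 62.7 RPM in KYSE30 cells and at 200.2 and 195 RPM in TE-1 cells (1.58 ± 0.11, limma, adjusted p = 0.00123). SRPRB differed by 1.497 ± 0.11 (adjusted p = 0.00135).

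Within the signal recognition particle, SRP14 (0.56) and SRP72 (0.48) were higher and SRP54, which binds the signal sequence, was lower (-0.54). In the translocon, the protein channel of the endoplasmic reticulum, SEC61A1 was higher (0.56) and SEC61G lower. SEC61G had the highest mean level of the genes tested and was at 1433 and 1582 RPM in KYSE30 cells and 523 and 537 RPM in TE-1 cells (-1.51 ± 0.11, limma, adjusted p = 0.00140). The chaperone genes DNAJC2 (1.34), HSPA8 (1.09) and HYPK (1.87) were higher in TE-1 cells, and HSPA8 had the lowest mean level of the 25 genes tested, at 11.3 RPM. That level is of its 1 listed PAC, at 9.29 and 4.88 RPM in KYSE30 cells and 16.7 and 14.4 RPM in TE-1 cells. Whether other 3′ ends of HSPA8 went unlisted was not tested, so its level as a gene is uncertain.

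Among enzymes that modify the N-terminus, NMT1 (0.72), NAA10 (1.01), NAA15 (0.62), NAA25 (0.82) and PDF (0.77) were higher in TE-1 cells and NAA20 was lower (-0.77). NAA15 and NAA10 form the main N-terminal acetyltransferase of the ribosome, and HYPK binds it. The PACs of HYPK, NAA10 and PDF also lay in SERF2, ARHGAP4 and COG8, so their levels are uncertain, and 10 genes were higher without them.

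**Figure D4:**
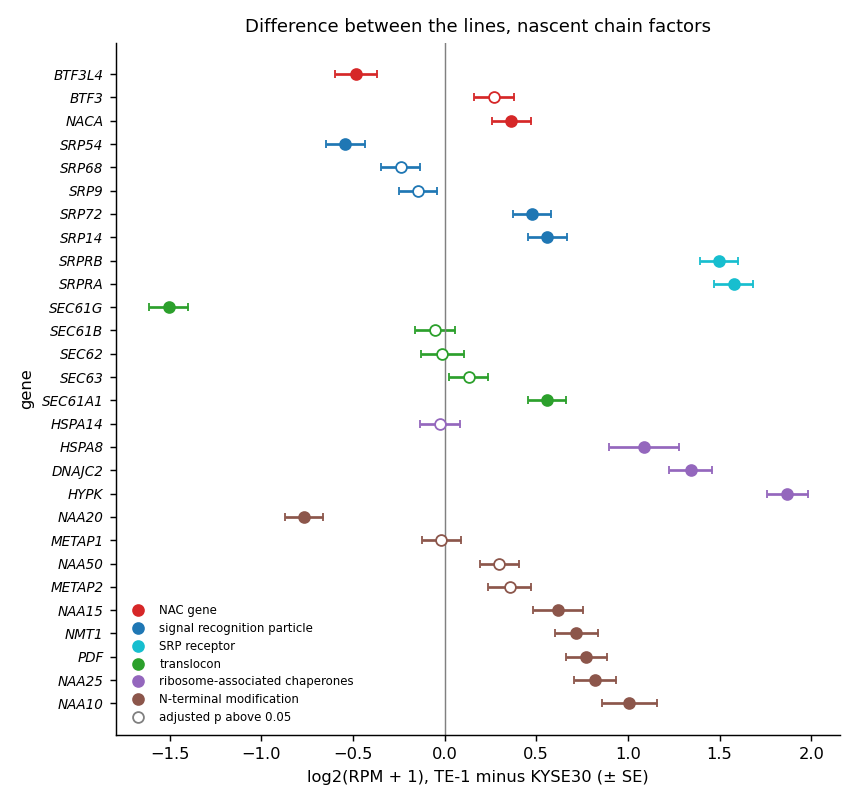
Log2(RPM + 1) in TE-1 minus KYSE30 cells (x axis, points, with SE as bars) for BTF3L4, BTF3, NACA and the 25 listed nascent chain factors that were tested (y axis), coloured by group. Filled points passed an adjusted p of 0.05 in limma. BTF3L4 lies at -0.48, opposite to BTF3 (0.27) and NACA (0.36), and HYPK (1.87) and SEC61G (-1.51) lie at the ends.

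No PAC lay in the span of NACA2, NACAD or any of 28 pseudogenes named for BTF3, BTF3L4 or NACA. Tags that could have come from either a gene or such a copy depend on how the aligner placed them. By Euclidean distance of log2(RPM + 1) centred within each gene, over 4 libraries and 9796 genes, the pattern nearest to BTF3L4 was that of FAM131A (0.0122), then HLA-E (0.0250) and COQ5 (0.0277). C19orf53 (0.0246) and ACBD6 (0.0250) were among the 3 genes nearest to NACA. RNASEH2A and THSD8, which share their PACs (0.0247), and ATP5MF (0.0309) were nearest to BTF3.

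Markers fixed for the cell type were partly in place. EPCAM, KRT8 and KRT18 were found in all 4 libraries and all were lower in TE-1 cells, and CDH1 was at 204 and 228 RPM in KYSE30 cells and at most 1.30 RPM in TE-1 cells. Of 8 squamous markers, KRT6A, SOX2 and DSC3 were listed in KYSE30 alone, KRT17 in TE-1 alone, and no PAC was listed in KRT5, KRT14, TP63 or DSG3. None of 4 leukocyte markers had a PAC. Of 5 fibroblast markers, COL1A1, DCN and PDGFRB were listed in TE-1 alone, summing to 16.6 and 15.3 RPM. No PAC was listed in COL1A2 or LUM. Of 3 endothelial markers, CDH5 was listed in KYSE30 alone, at 16.2 and 11.2 RPM, and PECAM1 and VWF had no PAC. These lists differ between the lines as the NAC genes do, and their part in the line differences was not tested.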

How the data were processed

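PAS-seq was done on 4 libraries, 1 control and 1 L-lactate library in each of KYSE30 and TE-1. Per the study's methods, the authors trimmed reads with FASTX-Toolkit, aligned them with HISAT2 to GRCh38 (p14 in the submitters' processing notes), called sites with CAGEr and joined them into PACs. The deposited values, named TPM by the authors, are RPM of each PAC and of its dominant site, with no correction for length. They were whole multiples of 1 step per library, within 0.001 RPM, which gave the tags used for intervals (Poisson, Wilson, or a hybrid score interval for differences). PACs not listed were taken as 0. Tests used limma 3.58.1 in R 4.3.3 with Benjamini-Hochberg adjustment over all genes (at least 5 RPM in a library) or PACs, log2(RPM + 1) for levels and log2 odds with 0.5 RPM added for usage, and had 1 residual degree of freedom. Nothing says whether libraries of a line came from separate cultures, so p-values measure the spread between these libraries. The genes and lists were chosen with earlier results of these data known. Named were all PACs of the 3 genes, list genes past the threshold, the highest and lowest of the list, and the 3 nearest patterns of each gene, of which 1 is not reported here. Sequences were read with pysam 0.24.0 and intervals computed with SciPy 1.17.1 in Python 3.11.15. Alternatives are given at the end.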

Additional observations from a re-analysis of the deposited data

Results flagged for a closer look

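The direction with L-lactate was opposite in the lines for a gene and for PACs, and these differences between the lines were not tested. The PAC at the PRIM1 end of NACA was at 0.796 of the KYSE30 control (0.682 to 0.929) and 1.04 of the TE-1 control (0.883 to 1.23), so that the KYSE30 interval alone lies apart from 1. BTF3L4 as a whole was at 0.957 of the KYSE30 control and 1.09 of the TE-1 control, and its proximal PAC at 0.972 of the former (0.869 to 1.09) and 1.02 of the latter (0.905 to 1.15). All 4 of those intervals include 1.

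A further PAC lay outside the BTF3L4 span and enters none of the comparisons. It covered chr1:52091559-52091563, 843 nt past the annotated end, with TATAAA upstream of both of its dominant sites. It was at 3.77 RPM in the KYSE30 control (28 tags), 1.81 RPM in KYSE30 with L-lactate (13 tags) and 1.65 RPM in TE-1 with L-lactate (14 tags), and the TE-1 control listed neither it nor the distal PAC. With L-lactate it stood at 0.480 of the control in KYSE30 cells (0.228 to 0.959). Whether these tags belong to BTF3L4 transcripts was not tested.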

How the results depend on the processing

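Between the lines, BTF3L4 kept its direction and its call under all 8 alternatives (adjusted p 5.84e-04 to 0.0455, limma). Its log2 difference was the same as in the main fit wherever only the filter, the PACs kept or the variance model changed, so its direction could not change there. NACA also lost its call with no filter on low values (adjusted p = 0.0617) and passed without the 2 PACs shared with a neighbour (adjusted p = 0.0399). BTF3 also passed when a gene had to reach 10 RPM in all libraries (adjusted p = 0.0275) and with a variance trend (adjusted p = 0.00364). The variance trend and the shared PACs were chosen after seeing the data.

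Requiring 10 RPM in all libraries changed the count of genes called between lines from 7218 to 4778 of 6566 tested, and with L-lactate from none to 21. Of pairs of a PAC and a gene, 223 passed with L-lactate when 5 RPM was required in all libraries. Between lines none passed at first, and 1247 did with 0.1 RPM added, 1648 with 2 RPM added and 1538 with at least 5 RPM required. With at least 5 RPM required, the fit gave all PACs the same spread, and each remaining PAC of BTF3L4 and NACA had an SE of 0.20. In the main fit between lines the SEs of their PACs ran from 0.20 to 1.25. The cause of the differing counts was not tested.

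Scaled to the listed PACs, BTF3L4 was at 117 and 112 RPM in KYSE30 cells, control first. It was at 77.8 RPM in the TE-1 control and 85.1 RPM in TE-1 with L-lactate, and of these only 85.1 RPM lay within the counting interval of its main level. BTF3 was then at 1223, 1211, 1539 and 1390 RPM and NACA at 2070, 2014, 2687 and 2555 RPM, in the order KYSE30 control, KYSE30 L-lactate, TE-1 control and TE-1 L-lactate. With only PACs listed in all libraries, the proximal BTF3L4 PAC held 87.5% and 89.9% in KYSE30 cells and 82.9% in TE-1 with L-lactate, and the most distal remaining PAC, the middle PAC, held 12.5% in the KYSE30 control and 10.1% with L-lactate. In TE-1 cells it held 19.5% and 17.1%, control first. So measured, the distal share was lower with L-lactate in both lines, opposite to the main values. All that lay past the proximal PAC came to 19.98%, 18.7%, 19.5% and 24.7% in the same order of libraries, lower with L-lactate in KYSE30 cells and higher in TE-1 cells. Taking an unlisted PAC at the lowest listed level gave the distal PAC 1.44% in the TE-1 control, where up to 3 RPM at a single site could have gone unlisted, and the intron PAC of NACA 0.045% in TE-1 with L-lactate. By the lower quantile, the upper quantile or the midpoint, the shifts of the proximal and middle PACs in TE-1 cells and of the distal PAC in KYSE30 cells were 0 nt. Those measures need not move when another site within a PAC takes the lead.

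Depth limits the distal and intron PACs most, at 61 to 71 and 14 to 22 tags. The count model planned for tags was not run. Tags were inferred from the steps between RPM values, the lowest listed level is 8 to 11 steps, and a level of 1 tag is never listed, so they were not taken as deposited counts and served for intervals alone. Of 80 values of single genes or PACs under an alternative, 71 kept their direction and side of the threshold, 7 passed where they had not, 2 no longer passed and none reversed. Some alternatives, such as a filter on gene level, leave a difference as it was, so its direction could not reverse. The L-lactate comparison was paired by line throughout, with 2 pairs and 1 residual degree of freedom.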
